A study of Mus musculus with 4 samples.

Results

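The Ifi200 family members Ifi203, Ifi204, Ifi205, Ifi207, Ifi209 and Ifi211, 6 of the 12596 genes in the table, were followed in single macrophages and monocytes of the mouse colon. All 6 members were present. The study asked how colon macrophages respond to swallowed diesel exhaust particles (DEP), a model of ingested air pollution. Male C57/Bl6N mice received 12 µg DEP in 200 µL phosphate-buffered saline (PBS) by gavage on 5 days a week for about 6 months (mice 14 and 15), or PBS alone (mice 2 and 3); the age of the mice is not given in the sources used here. Lamina propria cells positive for CD11b and for Ly6C or CD64 were sorted and loaded as 1 well per mouse on a droplet system that counts RNA molecules by their 3' ends (UMIs, unique molecular identifiers). Cells were described in 2 overlapping classes: Plac8-high cells held 2 or more UMIs of Plac8, a gene of recently recruited monocytes, and C1q-high cells held 0.5% or more of their UMIs in C1qa, C1qb and C1qc, the complement subunits made by resident macrophages. The cells of each class were chosen by their measured Plac8 and C1q UMIs, and the family was selected on earlier results of these data, so the difference between the classes is given as a description, with no test.

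Ifi200 proteins carry a DNA-binding HIN domain, in most members joined to a pyrin domain through which proteins of the inflammasome type assemble. The family is induced by interferons, which act through a response element in the promoters of their target genes, and some members take part in sensing DNA in the cytosol and nucleus upstream of the adaptor Sting1. In the gut, monocytes enter the lamina propria and mature there into resident macrophages, losing Ly6c2 and Plac8 and gaining C1q genes.

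The 6 genes lie in 1 cluster on mouse chromosome 1, within 400.894 kb (GRCm38, chr1:173630917-174031810). Ifi205 occupies chr1:174011998-174031810, Ifi203 chr1:173920407-173942672, Ifi211 chr1:173896345-173913046, Ifi204 chr1:173747293-173766943, Ifi207 chr1:173723427-173741747 and Ifi209 chr1:173630917-173647928. Ifi209 is read from the + strand and the other members from the − strand. Mndal, a further gene of the cluster, overlaps Ifi203 and Ifi211 on their strand and shares 37 exonic bases with Ifi203.

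**Figure D1:**
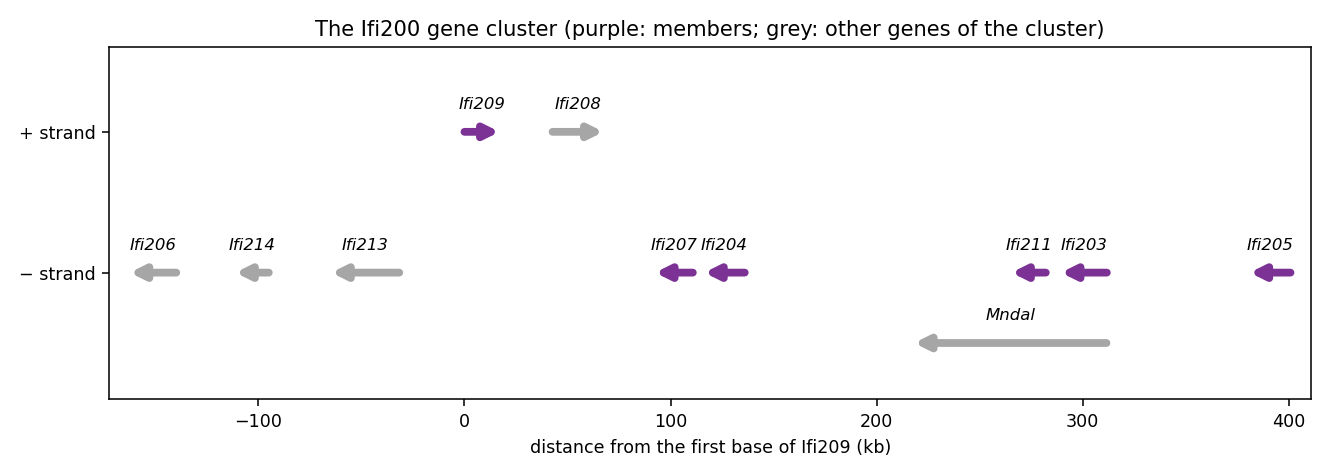
Map of the Ifi200 cluster, with each gene drawn to scale as an arrow in its reading direction against the distance in kb from the first base of Ifi209; purple marks the members and grey the other genes of the cluster in the table, without Aim2, which lies further left. Mndal, drawn on a line of its own below, overlaps Ifi203 and Ifi211, and Ifi205 closes the cluster on the right.

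The members resemble each other in the part of the transcript that the assay reads. In the last 500 bases of its transcripts, Ifi211 had 77.4% of its 50-base stretches in common with Ifi205 or Mndal, Ifi209 had 47.8% in common with Ifi214, and Ifi205 had 39.6% in common with Ifi211 or Mndal. For Ifi203, Ifi207 and Ifi204 the shares were 9.10%, 3.54% and 1.77%. Counts of Ifi205, Ifi211 and Ifi209 are therefore uncertain: reads from the common stretches could have been lost or placed in the wrong gene.

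Promoter windows (RefSeq, GRCm38.p6, 250 bases before to 50 after the start site) were at hand for 5 members, all but Ifi204. The sequences are shown because the family is named for its induction by interferon. Each line gives the 150 bases before the start site, 5′ to 3′ along the gene, with the letters matching the interferon-stimulated response element (GAAA, any 2 bases, GAAA) in capitals. Of the windows of Ifi203, the one that holds the match is shown (start site at base 173942492); the other, with its start site at base 173942672, held none.
Ifi205 (chr1:174031756-174031905, −): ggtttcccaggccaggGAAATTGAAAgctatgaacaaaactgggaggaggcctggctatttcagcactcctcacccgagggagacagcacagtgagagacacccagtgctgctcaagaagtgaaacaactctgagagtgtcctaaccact
Ifi211 (chr1:173913047-173913196, −): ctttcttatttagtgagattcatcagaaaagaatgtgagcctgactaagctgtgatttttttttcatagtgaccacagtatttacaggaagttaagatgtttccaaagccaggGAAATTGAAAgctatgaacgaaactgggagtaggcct
Ifi203 (chr1:173942493-173942642, −): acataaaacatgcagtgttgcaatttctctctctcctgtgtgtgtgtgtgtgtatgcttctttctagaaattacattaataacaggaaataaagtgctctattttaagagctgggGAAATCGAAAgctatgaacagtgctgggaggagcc
Ifi207 (chr1:173741810-173741959, −): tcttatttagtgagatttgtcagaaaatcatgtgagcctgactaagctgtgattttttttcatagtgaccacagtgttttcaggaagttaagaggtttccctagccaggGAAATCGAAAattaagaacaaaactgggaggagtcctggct
Ifi209 (chr1:173630709-173630858, +): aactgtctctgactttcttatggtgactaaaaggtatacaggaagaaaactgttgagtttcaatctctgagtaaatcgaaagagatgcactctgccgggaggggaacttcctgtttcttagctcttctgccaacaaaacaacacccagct

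The element was found on either strand in the windows of 4 of the 5 members, against 3.44% of all 32851 windows of 300 bases. It was also found in 5 of the 6 other genes of the cluster in the table, all but Aim2, so it was not particular to the members. Its first base lay 35 bases before the start site in Ifi203, 37 in Ifi211, 41 in Ifi207 and 134 in Ifi205, which held another match 24 bases after the start on the opposite strand. Ifi205 and Ifi211 carried the letters GAAATTGAAA, while Ifi203 and Ifi207 carried GAAATCGAAA. The Ifi209 window held no match. The gamma-activated site TTCNNNGAA was found in none of the 5 and in 8.30% of all windows. These are matches of letters and not measured binding.

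The 943 cells held 747351 to 1349134 UMIs per mouse, from 189 cells in mouse 14, 334 in mouse 15, 200 in mouse 2 and 220 in mouse 3, and 1 barcode was found in 2 of the mice. Of the monocyte markers, Ly6c2 was at 302 to 715 CPM (counts per 1000000 UMIs) in Plac8-high and 12.1 to 76.8 CPM in C1q-high cells. Apoe, a resident macrophage marker, was lower in Plac8-high cells of every mouse. The 15 resident macrophage markers, C1q genes included, summed to 18105 to 36768 CPM in Plac8-high and 66621 to 70856 CPM in C1q-high cells. In mouse 2, Cd163 (14.7 against 5.93 CPM) and Fcgr1 (229 against 218 CPM) were higher in Plac8-high cells. Of the 943 cells, 208 were Plac8-high (55, 79, 38 and 36 in mice 14, 15, 2 and 3), 764 were C1q-high (149, 251, 176 and 188), 61 were both and 32 neither. Near the limits, 62 cells held 1 Plac8 UMI and 25 held 2, while 7 cells had a C1q share of 0.4 to 0.5% and 6 of 0.5 to 0.6%. Igkc, an immunoglobulin light chain gene, was found in 64.0% and 74.6% of the cells of the DEP mice and in 31.5% and 46.4% of the PBS mice. All 12 B or plasma cell markers together reached 21942 and 30552 CPM in the DEP and 1652 and 8844 CPM in the PBS mice over all cells. Within C1q-high cells their sum was 1135 and 1331 CPM in the DEP and 1720 and 4999 CPM in the PBS mice. In Plac8-high cells it was 28949, 1761, 1260 and 53807 CPM in mice 14, 15, 2 and 3. A first rule left out each cell in which at least 3 genes of another cell type's marker list were seen. It kept 518 cells and removed more from the DEP mice (94 and 199) than from the PBS mice (49 and 83), and 407 of the 425 cells left out carried B or plasma cell genes. Tests are therefore given for these 518 retained cells and for all 943, and for 908 cells kept when Igkc, Jchain, Iglc2, Ighm, Igha and Xbp1 were not used as markers. Fewer cells of a type and less RNA per cell cannot be told apart in sums over all cells, where Plac8-high cells made up 29.1% and 23.7% of the DEP and 19.0% and 16.4% of the PBS mice.

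Most members were higher in Plac8-high cells. In all 4 mice 5 of the 6 members, namely Ifi203, Ifi204, Ifi205, Ifi209 and Ifi211, were higher in Plac8-high than in C1q-high cells, which held for 22.2% of 6103 genes. For the same 5 members every Plac8-high library was above every C1q-high library, as for 12.0% of genes. The sum of the 6 members was 1495, 1494, 789 and 812 CPM in the Plac8-high cells of mice 14, 15, 2 and 3. In C1q-high cells it was 635, 571, 411 and 390 CPM, so that the sum was higher in Plac8-high cells in every mouse, by 1.16 ± 0.20 on the log2 scale (SD, n = 4 mice). Among the retained cells, 5 of 6 members were likewise higher in all 4 mice (21.2% of genes) and 4 of 6 did not overlap (11.5% of genes).

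Ifi205, a member with a pyrin and a HIN domain that is expressed in myeloid cells, had the highest mean class difference, at 3.93-fold (log2 1.97 ± 0.64, SD, n = 4). Its level was 359, 364, 118 and 71.8 CPM in Plac8-high cells of mice 14, 15, 2 and 3, and 66.8, 60.5, 38.6 and 29.8 CPM in C1q-high cells. The class difference was larger in both DEP mice (log2 2.43 and 2.59) than in both PBS mice (1.61 and 1.27), and in PBS mouse 3 those of Ifi209, Ifi211 and Ifi204 were larger (1.96, 1.68 and 1.45). Its share of C1q-high cells, and that of Ifi209, was in every mouse below the share in 35 cells of other types (11.4% after thinning). The lower end of both ratios is therefore uncertain. Some of the 35 cells were themselves Plac8-high, and whether their UMIs are free RNA was not tested. The PBS values rest on few cells, because 9 of the 16 Ifi205 UMIs in Plac8-high cells of mouse 2 came from 1 cell.

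Ifi209 and Ifi211 followed. Ifi209 was at 175, 176, 66.3 and 105 CPM in Plac8-high and at 59.2, 42.8, 28.2 and 27.0 CPM in C1q-high cells of mice 14, 15, 2 and 3, a difference of 3.25-fold (log2 1.70 ± 0.37, SD, n = 4). For Ifi211 the levels were 373, 315, 199 and 144 CPM against 125, 87.5, 65.2 and 44.8 CPM, or 3.20-fold (log2 1.68 ± 0.12, SD, n = 4). With no cell left out, the Ifi211 ratio was the least variable between mice among the 5 members that were higher in Plac8-high cells.

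Ifi204, often called p204 and studied as a mouse counterpart of the human DNA sensor IFI16, stood at 259, 304, 192 and 276 CPM in Plac8-high cells and 137, 109, 89.0 and 101 CPM in C1q-high cells of mice 14, 15, 2 and 3. This was 2.36-fold (log2 1.24 ± 0.28, SD, n = 4). Ifi203 was 1.89-fold higher in Plac8-high cells (log2 0.92 ± 0.18, SD, n = 4), at 171, 176, 111 and 99.4 CPM against 84.4, 90.3, 53.4 and 63.4 CPM. Both genes were above their C1q-high level in each mouse, but the groups of mice overlapped for Ifi204 within Plac8-high cells.

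Ifi207 was the exception. It was at 158, 158, 103 and 116 CPM in Plac8-high cells and at 163, 181, 136 and 124 CPM in C1q-high cells of mice 14, 15, 2 and 3, and was lower in Plac8-high cells in all 4 mice by a small amount (log2 -0.18 ± 0.16, SD, n = 4). By the mean over cells in place of the sum, it was lower in 3 of 4 mice. In the order of the class ratios, Ifi205, Ifi209 and Ifi211 differed by less than the SD of Ifi205, Ifi211 was above Ifi204 in every mouse, and Ifi203 was above Ifi204 in mouse 14 and below it in the other mice. Only Ifi207 was below the other 5 members in each mouse.

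**Figure D2:**
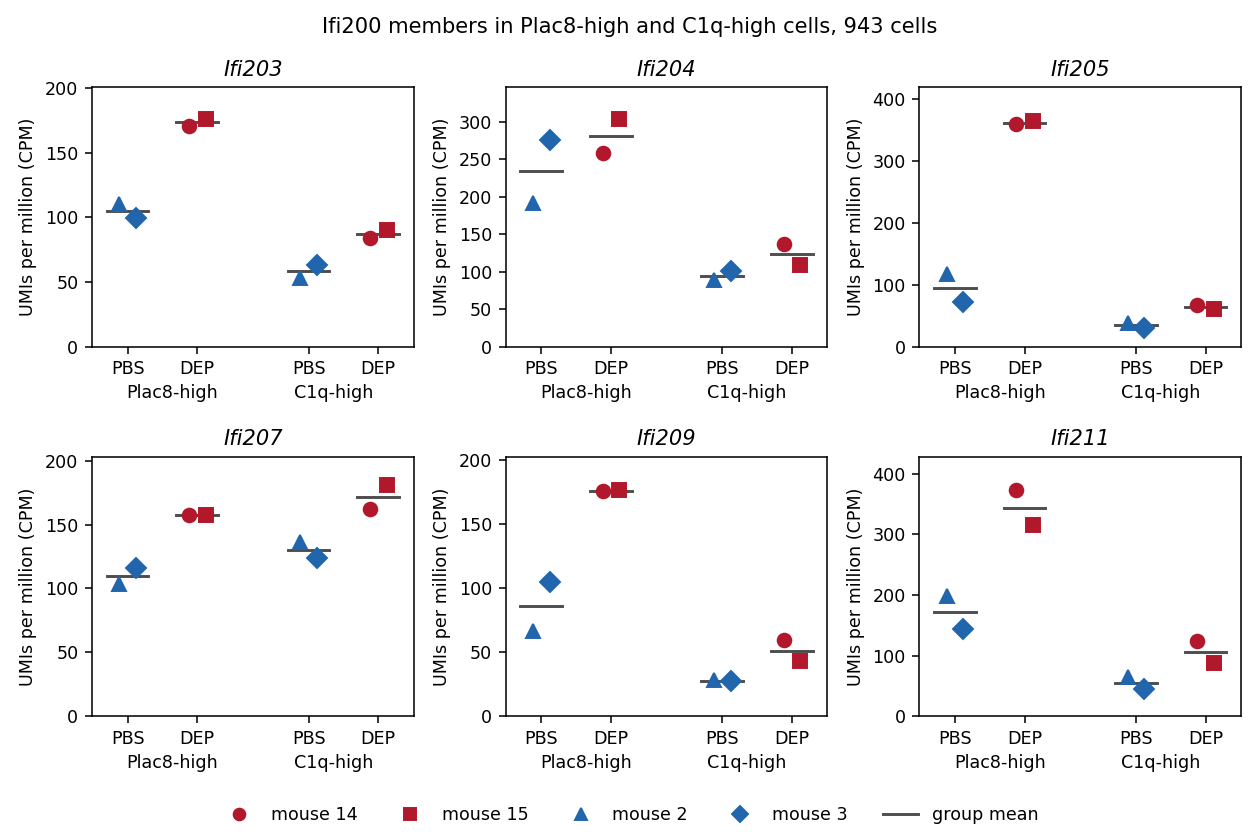
CPM of each member in Plac8-high and C1q-high cells of all 943 cells, with 1 point per mouse (red DEP, blue PBS) and a line at the group mean; each vertical axis starts at 0 and has its own range. Ifi205 is at 359 and 364 CPM in the DEP mice and at 118 and 71.8 CPM in the PBS mice in Plac8-high cells, and Ifi207 alone is not higher in Plac8-high cells.

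Cells carrying both markers were set apart from those carrying 1. In Plac8-high cells below the C1q limit (36, 67, 18 and 26 cells in mice 14, 15, 2 and 3), the summed members stood at 1527, 1437, 1275 and 978 CPM. In C1q-high cells below the Plac8 limit (130, 239, 156 and 178 cells) the sum was 530, 490, 417 and 373 CPM. In the 61 cells with both (19, 12, 20 and 10), it was 1446, 1639, 360 and 596 CPM, nearer to the Plac8-only level in the DEP mice and nearer to the C1q-only level in the PBS mice. By the mean over cells PBS mouse 3 went the other way, at 985 CPM in cells with both markers against 1018 in Plac8-only and 408 in C1q-only cells. By the summed counts both DEP mice were above both PBS mice in these 61 cells for all 6 members, as for 19.8% of genes, and by the mean over cells for 3 of 6, namely Ifi205, Ifi209 and Ifi211 (21.2% of genes).

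Ifi205 was at 443 and 367 CPM in the Plac8-only cells of the DEP mice and at 220 and 88.0 CPM in those of the PBS mice, with no overlap. In C1q-only cells the groups overlapped, at 45.5 and 38.1 CPM in the DEP and 39.8 and 28.2 CPM in the PBS mice. In cells with both markers it was at 232 and 357 CPM in the DEP mice (21 and 27 UMIs), against 27.7 and 50.7 CPM in the PBS mice (2 and 4 UMIs). The ratio of the DEP to the PBS mean was 1.86 in the C1q-high class as a whole and 1.23 in its cells below the Plac8 limit, at shares of cells that do not exceed those in cells of other types.

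For Ifi209 and Ifi211 the groups were separate in the cells with both markers and overlapped in Plac8-only and in C1q-only cells. Ifi209 had 20 and 18 UMIs in the cells with both markers in the DEP mice and 1 UMI in each of the PBS mice. The corresponding Ifi211 levels were 375 and 489 CPM against 97.0 and 101 CPM. In the Plac8-only cells Ifi209 was at 145 and 152 CPM in the DEP and 126 and 176 CPM in the PBS mice, and the groups overlapped there for Ifi211 too (371 and 246 CPM against 315 and 176 CPM). The cells with both markers number 10 to 20 per mouse, and these splits were not tested. In mouse 15, 15 of the 27 Ifi205 UMIs and 22 of the 37 Ifi211 UMIs of such cells came from 1 cell each. Of the summed member UMIs of such cells, 1 cell held 51 of 124 in mouse 15 and 1 cell held 29 of 131 in mouse 14. In the retained cells, where mouse 15 had 1 cell with both markers, the summed members in such cells no longer separated the groups (means of 935 ± 737 and 888 ± 632 CPM, SD, n = 2).

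**Figure D3:**
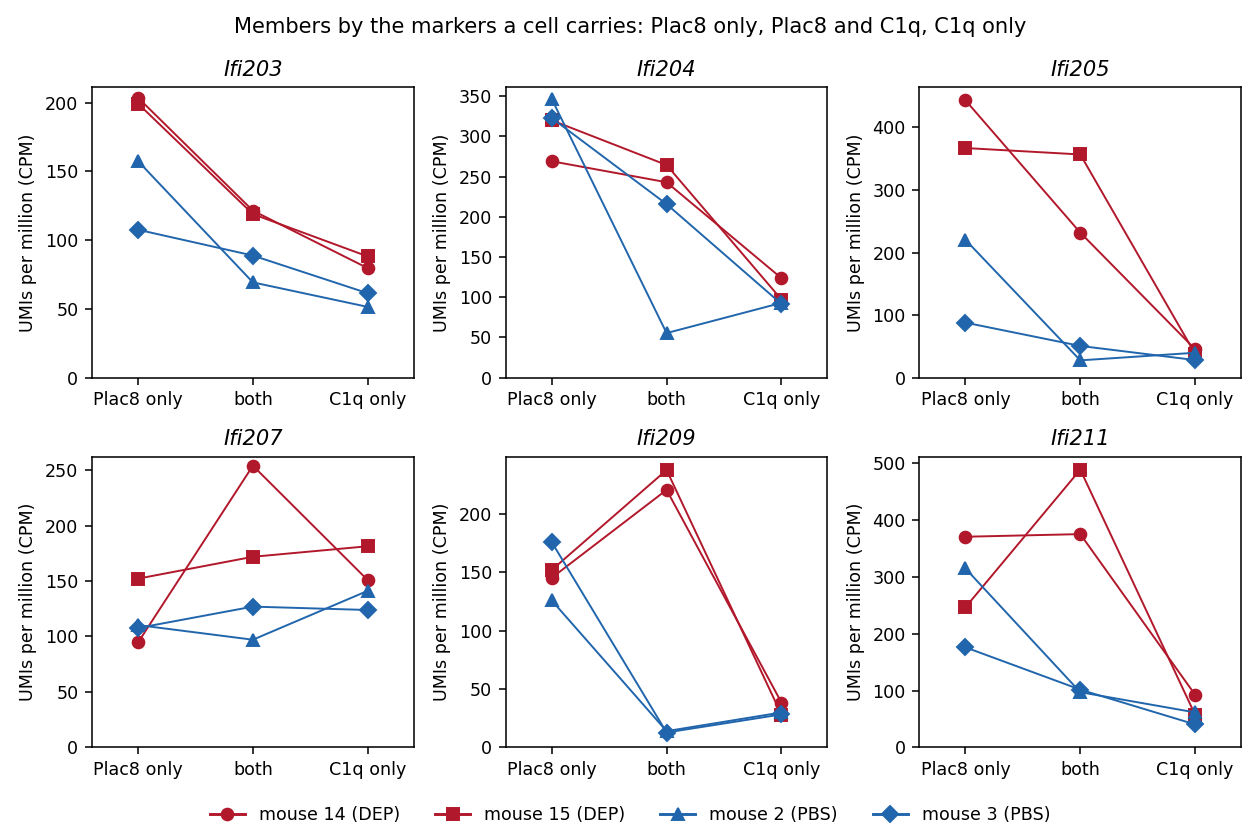
CPM of each member in Plac8-only cells, cells with both markers and C1q-only cells, joined by a line for each mouse (red DEP, blue PBS), over the 943 cells; each vertical axis starts at 0. By these summed counts both DEP mice lie above both PBS mice in cells with both markers for each of the 6 members (3 of 6 by the mean over cells), and Ifi207 alone is not lower in C1q-only than in Plac8-only cells.

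DEP was then compared with PBS over the 4 mice. Every member was higher in the DEP mice by the fitted fold change, in all cells and in either class, against 49.6%, 52.8% and 50.6% of the genes tested over all, Plac8-high and C1q-high retained cells, and 48.9%, 49.4% and 49.5% with no cell left out. Over all cells with no cell left out, the fitted log2 fold changes ran from 0.32 for Ifi204 and 0.34 for Ifi207 to 1.39 for Ifi205. No member passed an adjusted p of 0.05 in the 518 retained cells, and Ifi205 passed it in Plac8-high cells when no cell was left out. All 6 members passed the filter on low values in each comparison.

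Over all cells, Ifi205 was at 120, 107, 53.5 and 35.3 CPM in mice 14, 15, 2 and 3. Its log2 fold change was 1.31 (SE 0.35, adjusted p = 0.377 by edgeR's quasi-likelihood test) in the retained cells and 1.39 (SE 0.22, adjusted p = 0.125) with no cell left out. Ifi211 stood at 157, 110, 87.0 and 57.1 CPM, for a log2 fold change of 0.92 (SE 0.24, adjusted p = 0.782) with no cell left out. Both DEP mice were above both PBS mice for these 2 members. Ifi203 was at 99.7, 102, 61.6 and 66.3 CPM and Ifi209 at 71.4, 58.6, 36.1 and 40.3 CPM. For Ifi204 the levels were 154, 134, 110 and 119 CPM, and for Ifi207 150, 170, 132 and 122 CPM. For each of the 6 members both DEP mice were above both PBS mice with no cell left out, as for 18.0% of all genes, and for 3 of 6 in the retained cells (20.0% of genes). An unadjusted p under 0.05 with a higher level in DEP was found for 4 of 6 (3.03% of genes) and 3 of 6 (2.88% of genes), respectively. None of the 6 passed the adjusted threshold in either set, where 0.0179% and 0.0985% of genes did, and DESeq2 also called none. In the retained cells the Ifi205 value rested on mouse 14: it was 0.43 without that mouse, 1.88 without mouse 15 and 1.47 without mouse 2. With no cell left out it was 1.68 without mouse 2. The part of the B or plasma cell RNA and of the larger share of Plac8-high cells in the DEP mice, given above, was not tested.

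In Plac8-high cells, the levels of Ifi205 in the DEP mice were 3.81 times those in the PBS mice (362 ± 3.35 against 94.9 ± 32.6 CPM, SD, n = 2 mice each). The fitted log2 fold change was 1.90 (SE 0.31, adjusted p = 0.0301 by edgeR's quasi-likelihood test) with no cell left out, and 2 of 5277 genes passed (0.0379%). It was 1.93 (SE 0.33, adjusted p = 0.0625) in the 908 cells and 1.38 (SE 0.46, adjusted p = 0.968) in the 518 retained cells. DESeq2 gave an adjusted p of 0.389 for all cells of the class, so the call rests on the test and on the cells kept. A value of Ifi205 was known when the family was chosen, so these p-values are not independent evidence. Leaving out each mouse in turn gave 1.58 to 2.23 with no cell left out. Such fits leave a lone mouse in a group, so only the fold change is given. In the retained cells Ifi205 was at 507, 185, 159 and 119 CPM in mice 14, 15, 2 and 3. Mouse 14 was far above the other mice there, and 30 of the 79 Plac8-high cells of mouse 15 were retained. Without mouse 14 the retained value was 0.38 and without mouse 15 it was 1.89. The 10 stroma or endothelium markers summed to 530 and 747 CPM in the Plac8-high cells of the DEP mice and to 7.37 and 22.1 CPM in those of the PBS mice, with Cdh5 and Kdr at 0 in all 4. The make-up of the class differed too: the 15 resident macrophage markers summed to 20410 and 18105 CPM in the DEP and to 36768 and 25327 CPM in the PBS mice, Plac8 itself was at 3796 and 3875 against 2233 and 2435 CPM, and Apoe at 11314 and 11001 against 24583 and 14707 CPM. The part of these markers in the result for Ifi205, or for the other members of the class, was not tested.

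Of the other members in Plac8-high cells, Ifi211 had a log2 fold change of 0.96 (SE 0.28, adjusted p = 0.616) and Ifi209 of 0.93 (SE 0.34, adjusted p = 0.727) with no cell left out, by the same test. Ifi203, Ifi207 and Ifi204 were at 0.67, 0.45 and 0.18. Both DEP mice were above both PBS mice for 5 of 6 members, all but Ifi204, with no cell left out (21.2% of genes), and for Ifi205 alone in the retained cells (19.4% of genes). An unadjusted p under 0.05 with a higher level in DEP was reached by 3 of 6 (2.99% of genes) and 1 of 6 (2.30% of genes). In the retained cells 0.00% of genes passed the adjusted threshold. The summed members were 1.87-fold higher in the DEP mice with no cell left out. In the retained cells they were at 1938, 1007, 886 and 1194 CPM in mice 14, 15, 2 and 3, and the groups overlapped.

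In C1q-high cells the fitted fold changes spanned a narrower range than in Plac8-high cells. With no cell left out, Ifi211 had a log2 fold change of 0.96 (SE 0.24, adjusted p = 0.472 by edgeR's quasi-likelihood test), Ifi205 of 0.91 (SE 0.25, adjusted p = 0.576) and Ifi209 of 0.86 (SE 0.28, adjusted p = 0.795). Those of Ifi205 and Ifi209 are uncertain, because their shares of cells were below that of the 35 cells of other types, some of which were Plac8-high. Ifi203, Ifi207 and Ifi204 followed at 0.56, 0.40 and 0.35. For all 6 members both DEP mice were above both PBS mice (17.7% of genes), and 5 of 6 had an unadjusted p under 0.05 (3.06% of genes had one and were higher). Among the retained cells this was 4 of 6 (17.3% of genes) and 1 of 6, Ifi207 (2.10% of genes). No member passed the adjusted threshold in either set, which 0.0175% and 0.00% of genes did, and DESeq2 called none. Without mouse 15 and with no cell left out, the log2 fold change of Ifi211 was 1.19. The sum of B or plasma cell markers was not higher in the DEP mice in this class, as given above. Plac8 was higher, at 328 and 128 CPM in the DEP and 116 and 85.8 CPM in the PBS mice. The 10 monocyte markers summed to 16410.4 and 17124.5 against 14392.7 and 16221 CPM, while the resident macrophage sums overlapped. In C1q-only cells with no cell left out, both DEP mice were above both PBS mice for Ifi203, Ifi204 and Ifi207. The groups overlapped there for Ifi205, Ifi209 and Ifi211. The part of the monocyte markers in these results was not tested.

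**Figure D4:**
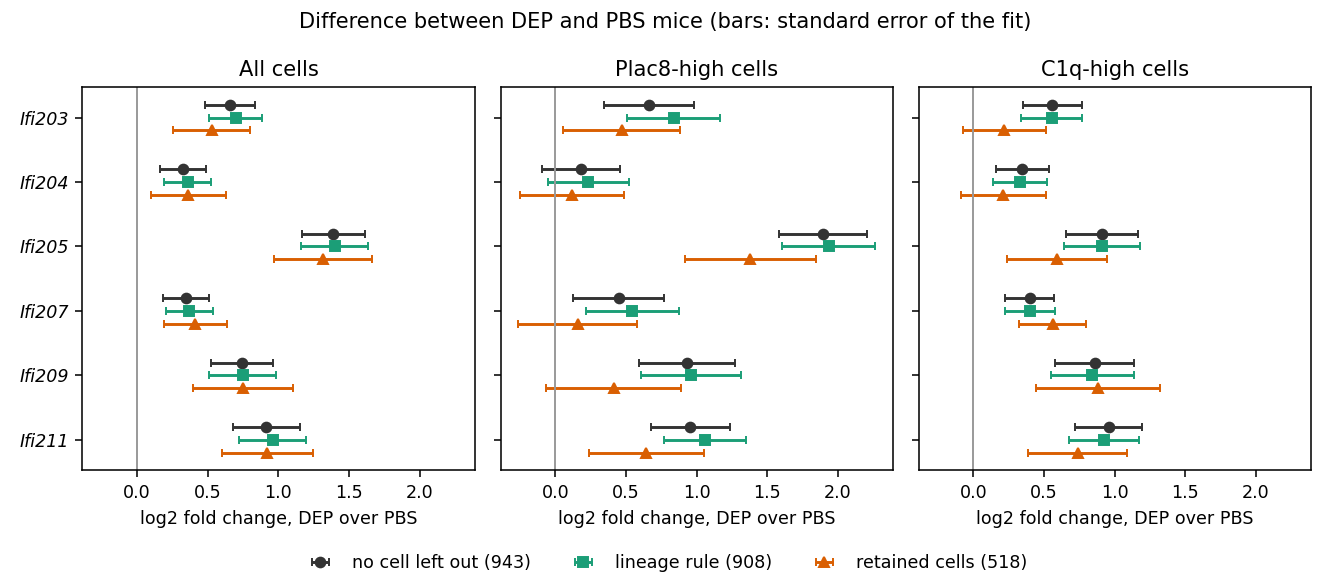
Fitted log2 fold change of DEP over PBS for each member, with bars of 1 standard error, over all cells, Plac8-high and C1q-high cells; black circles are all 943 cells, green squares the 908 cells and orange triangles the 518 retained cells. All points lie to the right of 0, and Ifi205 in Plac8-high cells is farthest, at 1.90 with no cell left out and 1.38 in the retained cells.

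Whether DEP acted differently in the 2 classes was tested directly, with the mouse as a block and without cells in both classes. For Ifi205 the log2 fold change was larger in Plac8-high cells by 0.87 (SE 0.59, unadjusted p = 0.141, adjusted p = 1 by edgeR) in the retained cells. With no cell left out the difference was 1.29 (SE 0.46, unadjusted p = 0.00926, adjusted p = 0.794). Ifi203 differed by 0.45, Ifi204 by -0.14, Ifi207 by -0.65, Ifi209 by -0.53 and Ifi211 by -0.060 in the retained cells, with an adjusted p of 1 each. Without mouse 14 the Ifi205 difference in the retained cells was -0.15. An unadjusted p under 0.05 with a larger effect in Plac8-high cells was found for 0 of 6 members in the retained cells (3.57% of genes) and for Ifi205 in all cells (3.11% of genes). No member passed (0.265% of genes did in the retained and 0.0165% in all cells), and the larger fold of Ifi205 in Plac8-high cells is not shown to differ from that in C1q-high cells.

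Counting cells gave a smaller contrast. After every cell was thinned to 1000 UMIs, a UMI of any member was found in 41.3% (95% exact binomial interval 34.2 to 48.6) and 43.1% (37.7 to 48.6) of the cells of the DEP mice 14 and 15, and in 36.0% (29.4 to 43.1) and 32.3% (26.1 to 38.9) of the PBS mice 2 and 3. Intervals cover counting error only. Among the retained cells the mean was 46.4% ± 2.81 in DEP and 36.0% ± 2.43 in PBS (SD, n = 2), with p = 0.333 in a two-sided exact permutation test, the smallest that 2 mice against 2 allow. Without thinning, the shares in all cells were 79.1% ± 3.42 and 68.0% ± 8.55 (SD, n = 2) at median depths of 2758 to 4684 UMIs.

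Within Plac8-high cells the thinned share was 63.6% and 60.8% in the DEP and 42.1% and 66.7% in the PBS mice, so the groups overlapped. In C1q-high cells it was 36.9% and 38.6% against 35.2% and 28.7%. Ifi205 itself was found in 23.6% and 19.0% of the Plac8-high cells of the DEP mice and in 5.26% and 13.9% of those of the PBS mice. Members were found together in 1 cell: 25.5% of the Plac8-high and 9.42% of the C1q-high cells held UMIs of 2 or more members after thinning. As a measure of free RNA, the 35 cells of other types that the 908 cells exclude, of which 17 were of the B or plasma type, had thinned Ifi205 UMIs in 11.4% at a median depth of 5737 UMIs, against 6.94% of the 908 cells at 3740 UMIs. The thinned share was 0% for Ifi203 and Ifi207 in these 35 cells, which allows a share of up to 8.57%. The 908 cells held 194 of the 208 Plac8-high and 755 of the 764 C1q-high cells, so some of the 35 cells belonged to these classes. Whether the UMIs in the 35 cells are free RNA or were made by these cells was not tested. For Ifi205 the shares in C1q-high cells, 4.26% to 6.71%, and in Plac8-high cells of mouse 2 were below that of the 35 cells. In Plac8-high cells PBS mouse 3 and both DEP mice were above it. Ifi209 was also found in 11.4% of the 35 cells. Of its shares only that in Plac8-high cells of mouse 14 (20.0%) was above this, and that of mouse 15 was about equal to it. With 35 cells these shares rest on few cells, so values near them cannot be placed above or below. For Ifi204 and Ifi211, at 8.57% and 5.71% of the 35 cells, only the C1q-high share of mouse 3 was below (6.38% and 4.79%).

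**Figure D5:**
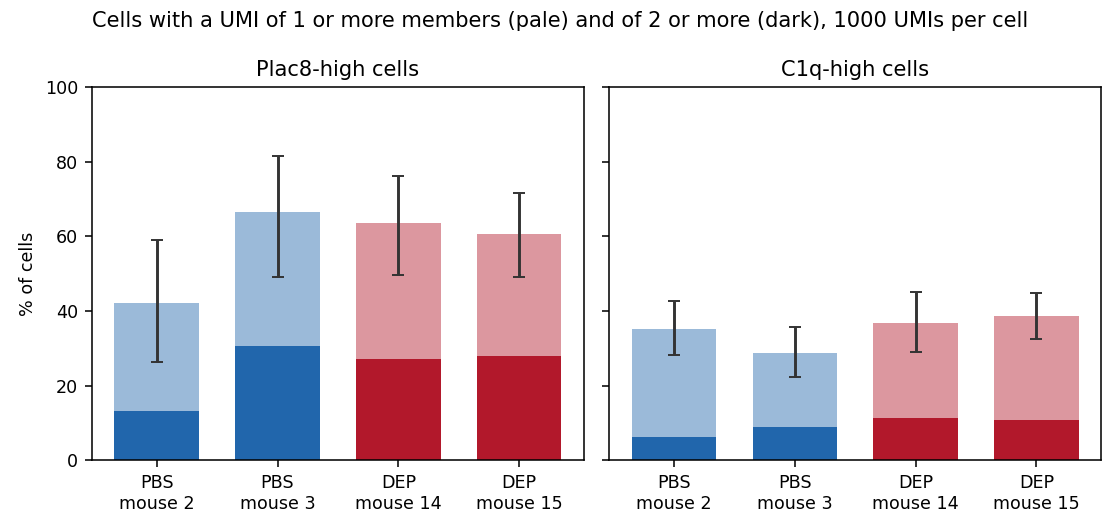
Percent of cells with a UMI of 1 or more members (pale bars, with the 95% exact binomial interval) and of 2 or more members (dark bars) per mouse, after thinning each cell to 1000 UMIs, in Plac8-high and C1q-high cells of the 943 cells. PBS mouse 2 has the lowest share in Plac8-high cells, at 42.1%, and PBS mouse 3 the highest, at 66.7%.

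Apart from Mndal, the other genes of the cluster were at lower levels than the members. Mndal, the gene that shares sequence with Ifi205 and Ifi211, was at 130, 104, 119 and 76.4 CPM over all cells of mice 14, 15, 2 and 3, with a log2 fold change of 0.28 (SE 0.22) that did not separate the groups. In Plac8-high cells Mndal was at 210, 199, 221 and 155 CPM, so its groups overlapped where those of Ifi205 and Ifi211 did not. Ifi206 (26.2, 16.3, 12.0 and 6.71 CPM) and Ifi213 (30.4, 15.6, 9.37 and 7.55 CPM) were higher in both DEP mice, at log2 fold changes of 1.22 (SE 0.42) and 1.40 (SE 0.44), each with an adjusted p of 0.782 by edgeR. Ifi214, which shares its 3' end with Ifi209, was at 12.6 to 14.7 CPM in every mouse. Aim2, the DNA sensor of the inflammasome, was at 25.2, 17.8, 14.7 and 34.4 CPM, and Ifi208 held at most 3 UMIs in a mouse. Of the 5 cluster genes tested over all cells with no cell left out, 0 passed the adjusted threshold by edgeR, 2 had an unadjusted p under 0.05 and were higher, and the median log2 fold change was 0.28, against 0.70 for the 6 members and -0.0090 for all genes. In Plac8-high cells the order was the opposite, with a median of 1.20 for 5 cluster genes and 0.80 for the members with no cell left out, and 0.78 and 0.44 in the retained cells. Apart from Mndal, these cluster genes held 0 to 9 UMIs per mouse in the retained Plac8-high cells, so their median rests on few counts.

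Genes around the family in the same pathways had smaller median differences than the members. Of 16 tested genes of interferon receptors and signalling, 12 were higher in DEP in the retained cells over all cells and 0 passed (2 with an unadjusted p under 0.05 by edgeR), with a median log2 fold change of 0.18; the best expressed were Socs3, Irf8, Ifngr1 and Ptpn6. Of 16 genes of cytosolic nucleic acid sensing, 9 were higher and 0 passed (3 with an unadjusted p under 0.05 and higher). Irf7, the interferon-amplifying factor on that list, was at 86.1, 64.5, 40.1 and 25.2 CPM with no cell left out, with an adjusted p of 0.592, and Hmgb1, Hmgb2 and Lrrfip1 had log2 fold changes of -0.025, -0.24 and -0.073.

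Clearance enzymes and inflammasome genes centred near or below 0. Of 8 genes of DNA and RNA clearance, 2 were higher, with a median of -0.37 and none past the adjusted or unadjusted threshold by edgeR; Pld4, Dnase1l3, Samhd1 and Rnaseh2c were the best expressed. Of 10 inflammasome genes of the AIM2 type, 6 were higher with a median of 0.047 and 0 passed over all cells (1 with an unadjusted p under 0.05). Il1b, its cytokine product, was at 2661, 3593, 4575 and 3121 CPM with no cell left out, and Pycard, Ninj1 and Nlrp3 did not pass either. In the test of the difference between classes Il1b passed in the retained cells (0.97, SE 0.24, adjusted p = 0.0200 by edgeR) but not with no cell left out (0.65, adjusted p = 0.971).

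Other interferon-stimulated genes came closest to the members. Of 19 tested over all retained cells, 18 had a higher level in the DEP mice (median log2 difference 0.59, against 0.64 for the 6 members and -0.0035 for all genes), and Ifi47, an immunity-related GTPase, passed (log2 2.02, SE 0.39, adjusted p = 0.0451 by edgeR). With no cell left out Ifi47 had an adjusted p of 0.782, and 11 of 20 had an unadjusted p under 0.05. Ifitm3, Ifi27l2a, Ly6e and Bst2 were the best expressed. Ifitm3 stood at 1206, 1352, 819 and 845 CPM with no cell left out, with both DEP mice above both PBS mice. In Plac8-high retained cells the median of these other genes, 0.63, was above that of the members, 0.44. With no cell left out the medians in Plac8-high cells were 0.75 and 0.80.

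Across 8 libraries (4 mice by Plac8-only and C1q-only cells, log2 of CPM + 10), the 5 genes of 2238 whose level followed the summed members most closely were Ube2a (Pearson r = 0.986), Pcnp (0.982), Myd88 (0.980), Cdkn2d (0.980) and Ssr2 (0.979). Myd88, the adaptor of Toll-like and interleukin-1 receptors, was at 88.0 to 147 CPM in the Plac8-only and 32.2 to 51.1 CPM in the C1q-only libraries. Cdkn2d, a cell-cycle inhibitor, was at 117 to 210 and 21.6 to 25.6 CPM. The libraries come from 4 mice and fall into 2 classes, so these values describe mainly the difference between the classes.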

How the data were processed

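Single-cell 3' RNA-seq was made from sorted colon macrophages and monocytes of 2 DEP and 2 PBS mice. Per the study's methods, reads were aligned to mm10 with STAR 2.6.1a within Cell Ranger, cells were filtered and tested for doublets, and the deposited table holds raw UMI counts of 12596 genes in 943 cells, without normalization. No cell was treated as a doublet here. Mouse and group were read from the cell names; the lowest cell held 1016 UMIs. Gene names came from the reference annotation (12576 of 12596 matched).

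UMIs were summed per mouse, all cells or class. Genes above 1 CPM in 2 or more libraries and with a UMI in 5% or more of cells were tested with edgeR 4.0.16 (TMM, quasi-likelihood, Benjamini-Hochberg over all genes, adjusted p under 0.05) in R 4.3.3; DESeq2 1.42.0 was an alternative. Scripts were tested on simulated data. The 4 mice are the replicates; p-values measure the spread between 2 mice a group.

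The main fit left out cells with 3 or more markers of another cell type. That list held immunoglobulin genes and Xbp1, found in many macrophages, and removed 425 cells unevenly, so values with no cell left out and from a narrower list (908 cells, added after seeing the data) stand beside it. Levels and likeness used all 943 cells. Per-cell shares used cells thinned to 1000 UMIs and an exact permutation test. Members and lists were chosen with earlier results of these data known, including a value of Ifi205, so the p-values are not independent evidence. Named genes were the members, the other cluster genes, the 4 most abundant genes of each list, list genes past the threshold and the 5 most alike.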

Additional observations from a re-analysis of the deposited data

How the results depend on the processing

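Each group holds 2 mice, and the PBS libraries of Plac8-high cells, of 38 and 36 cells, carried 9 to 50 UMIs of a member, which limits what could pass. No paired analysis was possible because the DEP mice (14 and 15) and the PBS mice (2 and 3) share no replicate number. The cause of each change below was not tested.

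Of 407 member fold changes recomputed in the 3 comparisons of DEP with PBS, 373 kept their direction and side of the threshold, 12 came to pass it and 22 reversed. Most of the 12 came from fits without a mouse, which leave 1 mouse in a group, so their p-values do not measure the spread in that group. With all 4 mice, the number of members past the threshold was 0 in the retained cells. With no cell left out it was 1, Ifi205, in Plac8-high cells, where 2 of 5277 genes passed. By the likelihood ratio test with no cell left out, Ifi205 passed in Plac8-high cells and in all cells. That test was more permissive, as 8 of 5277 and 7 of 5582 genes passed.

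The summed log2 ratio of the members was 0.72 over all cells (0.29 to 1.05 with a mouse left out), 0.50 in Plac8-high cells (-0.047 without mouse 14, to 0.90) and 0.52 in C1q-high cells (0.27 to 0.74), where leaving out cells with 2 markers gave 0.18. With no cell left out, the summed log2 class ratio of 1.16 became 1.52 without cells in both classes. It was 0.94 with limits of 1 UMI and 0.25%, and 1.36 with limits of 3 UMIs and 1%.

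In Plac8-high cells the reversed values were -0.32 for Ifi203 and -0.081 for Ifi204 with cells of 2 markers left out, -0.50 for Ifi204 after thinning, -0.19 for Ifi207 without cells in both classes, -0.0045 for Ifi204 and -0.20 for Ifi207 in the joint fit, and -0.064 for Ifi204 with no cell left out and without mouse 2. With a mouse left out the ranges were -0.26 to 0.60 for Ifi204, -0.13 to 0.34 for Ifi207, -0.11 to 1.24 for Ifi209 and -0.26 to 1.12 for Ifi211. In C1q-high cells, leaving out cells with 2 markers gave -0.057 for Ifi203, -0.012 for Ifi205, -0.46 for Ifi209 and -0.30 for Ifi211, thinning gave -0.21 for Ifi205 and -0.19 for Ifi211, and the range for Ifi204 with a mouse left out was -0.20 to 0.54. Over all cells that of Ifi204 was -0.062 to 0.71. For the difference between classes the ranges were -0.013 to 0.76 for Ifi203, -0.15 to 1.57 for Ifi205, -0.85 to 0.068 for Ifi209 and -0.54 to 0.21 for Ifi211, and thinning gave 0.66 for Ifi211.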
